A study of Mus musculus with 6 samples.

Results

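The BTG/TOB proteins and the CCR4-NOT complex shorten the poly(A) tails of mRNAs, and 10 of their genes were followed here in naïve CD4 T cells with and without Cre deletion of Rnmt. The genes were taken by symbol: Btg1, Btg2, Tob1 and Tob2, the scaffold genes Cnot1 and Cnot2, and the 4 genes of the catalytic subunits, Cnot6, Cnot6l, Cnot7 and Cnot8. They are 10 of the 46983 genes in the count tables, and all 10 passed the filter on low counts. RNMT is the methyltransferase that completes the m7G cap on new mRNAs. RNA was sequenced from 3 control libraries (Rnmt fl/fl CD4cre -) and 3 Rnmt cKO libraries (Rnmt fl/fl CD4cre +), each from male mice on a C57B6/J background, and no age was given in the sources used here. The floxed alleles carry loxP sites around an internal exon of Rnmt and are shared by both groups, and the Cre transgene is driven by Cd4 regulatory sequence, which is active from the double positive thymocyte stage, before cells become naïve CD4 T cells. As no control animal carried Cre, an effect of the transgene itself cannot be told apart from one of Rnmt deletion. The cells came from lymph nodes and were sorted as live TCRb+, CD4+ and CD44- cells with a naïve surface phenotype.

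Deadenylation is the step that starts the decay of most mRNAs. CCR4-NOT is built on the large scaffold protein CNOT1 and holds a pair of nucleases, one of the CCR4 type, encoded by Cnot6 or its paralog Cnot6l, and one of the CAF1 type, encoded by Cnot7 or its paralog Cnot8. The BTG/TOB proteins bind the CAF1-type nuclease through a shared N-terminal domain and bring it to mRNAs, TOB1 and TOB2 by contacting the cytoplasmic poly(A)-binding protein, and they are known as antiproliferative factors. BTG1 and BTG2 are known for keeping T cells in quiescence, with low amounts of mRNA, until they are activated.

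Sense counts assigned to genes came to between 8873413 and 11277764 per library, and the 10 genes held between 150 and 16488 counts in a library, the lowest being those of Tob1. Rnmt itself, the targeted gene, stood at 51.5, 58.7 and 57.9 CPM (the count of a gene relative to the TMM-scaled library total) in the 3 control libraries and at 42.0, 37.5 and 26.6 CPM in the 3 Rnmt cKO libraries. The groups did not overlap, and the log2 fold change of Rnmt cKO over control was -0.67 (SE 0.20, adjusted p = 0.00035, edgeR exact test). Counts of the whole gene include exons outside the deleted one. The third Rnmt cKO library stood apart in its share of uniquely mapped reads that were counted in no gene. This share was 31.8%, against 46.5% to 47.9% in the other Rnmt cKO libraries and 36.1% to 46.1% in the controls. Reads in no gene are here those outside annotated exons on the sense strand, so reads in introns are among them. Of all 12336 tested genes, 987 rose and 844 fell, which is 8.0% and 6.84%. Nothing in the labels says whether the libraries of a group came from separate animals, so p-values measure the spread between these libraries.

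The start sites of the BTG/TOB genes are shown here because RNMT methylates the cap in front of the first transcribed base, and mRNAs that begin with a C followed by a run of pyrimidines form a recognised class, the TOP mRNAs, whose translation is regulated through that end. Each line holds 15 bases before the annotated start and the first 10 transcribed bases, on the strand of the gene in GRCm38.p6, with the first 5 transcribed bases in capitals. The sequences are from RefSeq, which gave a start for 8 of the 10 genes, and not for Cnot1 and Cnot7.
Btg1 (chr10:96616986-96617010, plus strand): ctgcacggcggcggcAGCTCttcgc
Btg2 (chr1:134079146-134079170, minus strand): gctccccgcctccccGAGTGgtatg
Tob1 (chr11:94211439-94211463, plus strand): agaaggagcgaagctCTGGCccggc
Tob2 (chr15:81858317-81858341, minus strand): cgcaggggtggggaaAGCAGattca
Cnot8, the last of its 4 annotated starts (chr11:58104294-58104318, plus strand): acagaggctacggggCTCTCggtcc
None of the 4 BTG/TOB starts has a C followed by 4 pyrimidines, and of the 14 annotated starts of the 8 genes only the last one of Cnot8 does. Across all 32851 annotated starts, 2.51% begin in that way. Annotated starts can differ from those used in a given cell, and start sites were not measured in these libraries.

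Btg1 was the one gene of the 10 that passed the test, and it was higher in Rnmt cKO cells. It lies at chr10:96617006-96622809 on the plus strand of GRCm38. The control libraries held 899, 853 and 834 CPM and the Rnmt cKO libraries 1238, 1301 and 1478 CPM. Each Rnmt cKO value was above each control value, the lowest of them by more than the whole range of the controls. The group means were 862 ± 33.7 CPM and 1339 ± 124 CPM (SD, n = 3 each), a rise of 1.55-fold (log2 fold change 0.64, SE 0.08, adjusted p = 2.49e-07, edgeR exact test). The mean of Btg1 gained 477 CPM. As a ratio the rise was moderate, since 516 of the 987 genes that rose did so by a larger log2 fold change. The exons of Btg1 overlap no exon of another annotated gene, and its pseudogenes Btg1-ps1 and Btg1-ps2 had 0 counts in every library.

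**Figure D1:**
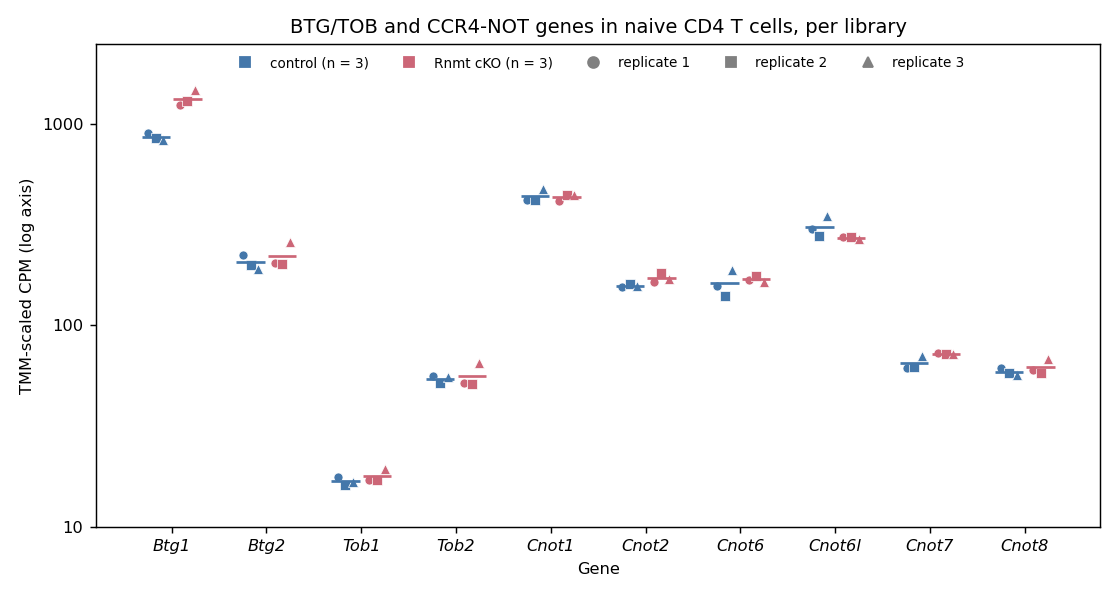
TMM-scaled CPM of the 10 genes on a log axis, with 1 point per library (shape gives the replicate number, for which no pairing across groups is stated) and a line at each group mean. For Btg1 the 3 Rnmt cKO points (1238 to 1478 CPM) lie above the 3 control points (834 to 899 CPM), while for most other genes the points of the groups are interleaved.

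The share of reads in no gene differed between libraries, and the Btg1 ratio was taken within libraries of like share. Among the 3 libraries with shares of at most 39.7%, which are 2 control libraries and 1 Rnmt cKO library, the log2 ratio was 0.75, and among the 3 with shares of at least 46.1%, which are 1 control library and 2 Rnmt cKO libraries, it was 0.61. One group of each set is a single library, so these ratios have no spread. With that share as a covariate, the edgeR quasi-likelihood fit gave a log2 fold change of 0.65 (adjusted p = 7.58e-07), beside 0.64 in the main fit. The part of that share in the rise was not tested beyond this fit. Over the 16 alternative settings the log2 fold change lay between 0.54 and 0.76, and each passed the threshold.

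Btg2 (chr1:134075170-134079120, minus strand), the closest paralog of Btg1, did not pass the test. The control libraries held 225, 201 and 192 CPM, and the Rnmt cKO libraries 204, 201 and 259 CPM, so that 2 of the 3 Rnmt cKO libraries lay within the control range and the third was above it. The log2 fold change was 0.11 (SE 0.14, adjusted p = 0.660, edgeR exact test). The difference between the paralogs was measured inside each library as the log2 ratio of Btg2 counts to Btg1 counts, which does not depend on the scaling of the libraries. This ratio was -2.00, -2.09 and -2.12 in controls and -2.60, -2.69 and -2.51 in Rnmt cKO cells. In plain terms, there were 0.23 to 0.25 Btg2 counts for each Btg1 count in control libraries and 0.155 to 0.175 in Rnmt cKO libraries. The mean difference was -0.53 (SE 0.06), the groups did not overlap, and p = 0.10 by a two-sided exact permutation test, the smallest value that 3 libraries against 3 can give (0.20 after adjustment over the 4 paralog pairs).

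Btg2 is a known target of p53 and is also induced as an immediate early gene, and some genes of both groups rose in Rnmt cKO cells. Of 12 tested p53 target genes 5 rose (Bax, Trp53inp1, Phlda3, Aen and Pmaip1), beside 8.0% of all tested genes. Of these, Phlda3 (0.55 to 0.60 CPM) and Pmaip1 (0.55 to 0.71 CPM) lay under 1 CPM in every control. They passed the filter on low counts only through the Rnmt cKO libraries, so the filter favoured their rise. Both the count of 5 and the median below include them. The median of the 12 log2 fold changes was 0.48. The summed level of all 13 listed genes, which include the untested Cdkn1a, was 762 to 793 CPM in controls against 978 to 1027 CPM in Rnmt cKO libraries. Trp53inp1, the most abundant of these genes, rose by 0.44 on the log2 scale (SE 0.04, adjusted p = 0.000102, edgeR exact test). Of 11 tested immediate early genes 5 also rose by the exact test (Fos, Junb, Egr1, Egr2 and Nr4a1) and 4 by the quasi-likelihood test or DESeq2, which did not call Fos. The median of the 11 was 0.55, and their summed level was 314 to 369 CPM in controls against 455 to 575 CPM in Rnmt cKO libraries. Junb, the most abundant, rose by 0.55 (SE 0.20, adjusted p = 0.00289) and Egr1 by 1.05 (SE 0.14, adjusted p = 4.61e-14). The Junb call was lost without control replicate 3 (adjusted p = 0.0539, exact test). Fos passed in 9 of the 15 alternative settings that tested it, and was also lost without control replicate 2, control replicate 3 or Rnmt cKO replicate 2. Whether these genes move with Btg1 or with Btg2 was not tested.

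The 250 bases before the Btg1 and Btg2 starts are given as a description. No link between these bases and the values of either gene was tested. Capitals mark matches to the motifs searched on both strands, which were GTAAACA, bound by FOXO factors, the E-box CACGTG, the cyclic AMP response element TGACGTCA, CCAAT and the GC box GGGCGG.
Btg1 (chr10:96616751-96617000, plus strand): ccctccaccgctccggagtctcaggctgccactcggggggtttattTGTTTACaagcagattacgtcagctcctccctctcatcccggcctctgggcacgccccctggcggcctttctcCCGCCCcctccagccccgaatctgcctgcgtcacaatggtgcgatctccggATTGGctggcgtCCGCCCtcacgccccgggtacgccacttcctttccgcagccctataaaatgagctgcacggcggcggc
Btg2 (chr1:134079156-134079405, minus strand): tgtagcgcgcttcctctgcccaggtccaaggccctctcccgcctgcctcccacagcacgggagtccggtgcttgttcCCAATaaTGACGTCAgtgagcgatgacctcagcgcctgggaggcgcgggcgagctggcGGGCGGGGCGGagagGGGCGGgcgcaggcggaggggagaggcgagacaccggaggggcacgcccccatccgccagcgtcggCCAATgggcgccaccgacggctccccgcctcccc
The Btg1 stretch has 1 FOXO match, on the other strand and beginning 204 bases before the start, 1 CCAAT match and 2 GC boxes. The Btg2 stretch has 1 TGACGTCA match beginning 166 bases before the start, 2 CCAAT matches and 3 GC boxes, of which the first 2 overlap. Among all annotated starts, 3.17% have a FOXO match and 1.55% a TGACGTCA match in the same stretch, against 33.85% with CCAAT and 32.74% with a GC box. No other one of the 14 starts has a FOXO or a TGACGTCA match, and none has an E-box, which 6.02% of all starts have. A match of letters describes the sequence and is not evidence that a factor binds there.

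Tob1 and Tob2, whose proteins contact the poly(A)-binding protein, were expressed at lower levels, and neither passed the test. Tob1 (chr11:94211454-94215495, plus strand) held 17.6, 16.1 and 16.7 CPM in controls against 17.0, 17.0 and 19.3 CPM in Rnmt cKO cells, with a log2 fold change of 0.08 (SE 0.07, adjusted p = 0.800, edgeR exact test). Tob2 (chr15:81848272-81858796, minus strand) held 56.1, 51.6 and 55.2 CPM and 51.9, 51.2 and 64.8 CPM, with a log2 fold change of 0.04 (SE 0.12, adjusted p = 0.889). In both genes the third Rnmt cKO library was the highest of all 6, as it was for Btg1, Btg2 and Cnot8. The log2 ratio of Tob2 to Tob1 counts was 1.69 ± 0.03 in controls and 1.65 ± 0.09 in Rnmt cKO cells (SD, n = 3 each), a difference of -0.04 with overlapping groups (p = 0.5, two-sided exact permutation test).

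**Figure D2:**
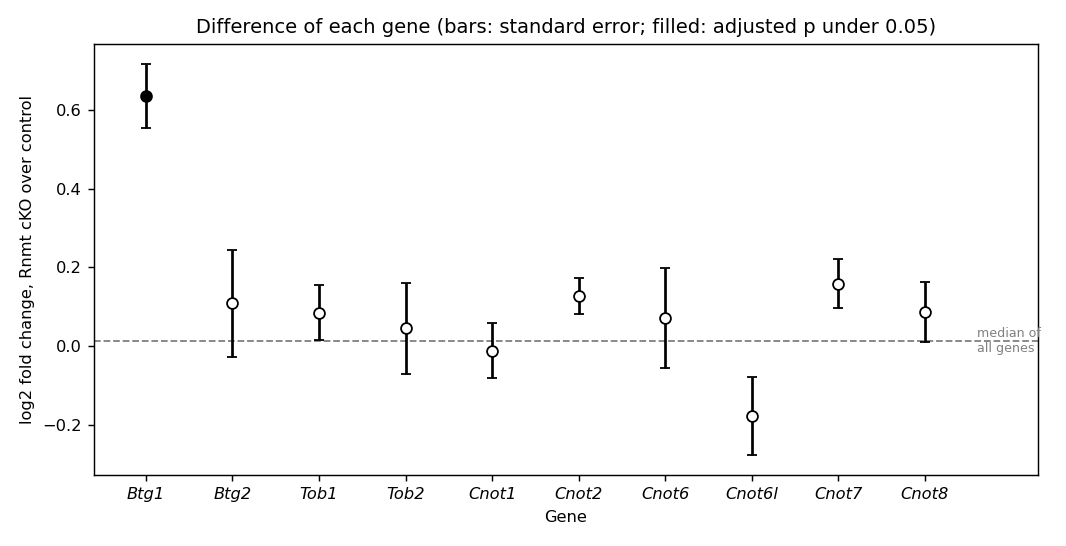
The log2 fold change of Rnmt cKO over control for each of the 10 genes, with bars of 1 standard error, a filled point where the adjusted p of the edgeR exact test is under 0.05, and a dashed line at the median of all tested genes (0.01). Btg1 stands at 0.64 and the other 9 genes lie between -0.18 and 0.16.

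Btg1 made up most of the BTG/TOB mRNA, and its share of that pool was higher in Rnmt cKO cells. Per length (RPKM, the scaled counts divided by the kilobases of annotated exon), Btg1 stood at 163 ± 6.38 in controls, Btg2 at 75.0 ± 6.25, Tob2 at 13.1 ± 0.57 and Tob1 at 7.34 ± 0.34 (SD, n = 3). Their sum was 274, 254 and 248 RPKM in controls and 329, 340 and 399 RPKM in Rnmt cKO cells, and the groups did not overlap (p = 0.10, two-sided exact permutation test). The share of Btg1 in that sum was 63.2 ± 0.75% in controls and 71.4 ± 1.15% in Rnmt cKO cells, again without overlap (p = 0.10, exact permutation test). Both p-values are unadjusted and the smallest that this design allows. The sum and the share contain Btg1 itself, so they restate its rise and are not a further result.

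The genes of the CCR4-type nucleases, CNOT6 and CNOT6L, did not pass the test. The ratio between them did not overlap between the groups, at an adjusted p of 0.20 by the exact permutation test. Cnot6l (chr5:96070333-96164171, minus strand) held 300.0, 278 and 350.0 CPM in controls against 276, 275 and 269 CPM in Rnmt cKO cells. Every Rnmt cKO value was below every control value, by little in the case of control replicate 2, and the log2 fold change was -0.18 (SE 0.10, adjusted p = 0.308, edgeR exact test). Cnot6 (chr11:49671503-49712723, minus strand) held 157, 140.2 and 189 CPM in controls against 169, 176 and 165 CPM in Rnmt cKO cells, overlapping throughout, with a log2 fold change of 0.07 (SE 0.13, adjusted p = 0.785). In both genes control replicate 3 was the highest library.

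That shared spread among the controls cancels in the ratio of the 2 genes. The log2 ratio of Cnot6l to Cnot6 counts was 0.94, 0.99 and 0.89 in controls and 0.71, 0.64 and 0.70 in Rnmt cKO cells. Control libraries thus held 1.86 to 1.98 Cnot6l counts per Cnot6 count and Rnmt cKO libraries 1.56 to 1.64. The mean difference was -0.25 (SE 0.04), with no overlap and p = 0.10 by the two-sided exact permutation test, the smallest that this design allows (0.20 after adjustment). Of single tested genes, 16.6% were higher and 14.9% lower without overlap, and Cnot6l was among the latter. How often ratios of 2 genes fail to overlap was not computed, here or for Btg2 to Btg1. Their summed level was 63.3 ± 8.48 RPKM in controls and 60.6 ± 1.27 RPKM in Rnmt cKO cells, overlapping (p = 0.8, exact permutation test).

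**Figure D3:**
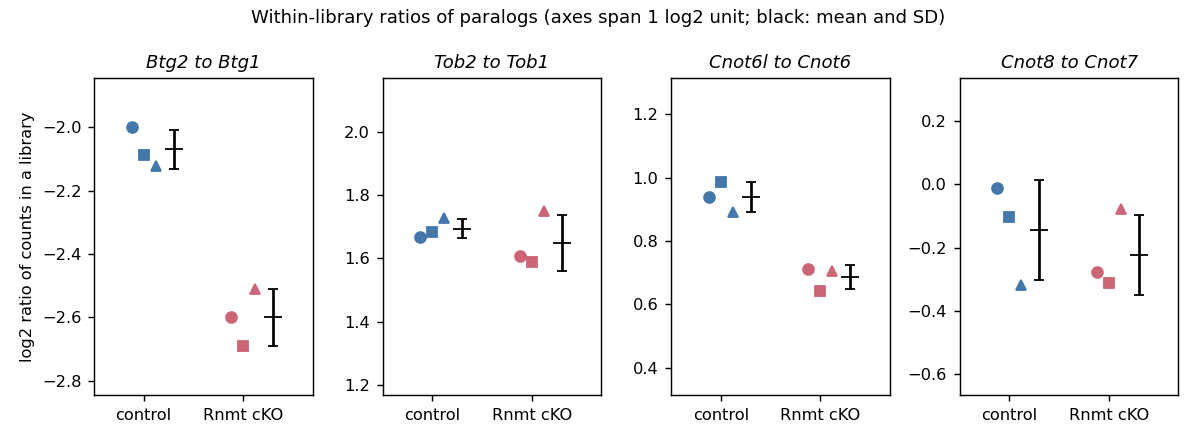
Log2 ratio of the counts of 2 paralogs inside each library, with 1 point per library and the mean and SD in black; the 4 vertical axes have different centres and the same span. Btg2 to Btg1 has a mean of -2.07 in controls and -2.60 in Rnmt cKO cells, and Cnot6l to Cnot6 of 0.94 and 0.69, with no overlap between groups, while Tob2 to Tob1 and Cnot8 to Cnot7 overlap.

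The genes of the CAF1-type nucleases, to which the BTG/TOB proteins bind, did not pass the test either. Cnot7 (chr8:40492540-40515847, minus strand) held 61.7, 62.5 and 70.7 CPM in controls against 72.8, 72.5 and 72.2 CPM in Rnmt cKO cells. The Rnmt cKO values were all above the controls, the nearest control by a small margin, and the log2 fold change of 0.16 (SE 0.06) did not pass the test (adjusted p = 0.325, edgeR exact test). Cnot8 (chr11:58104153-58118594, plus strand) held 61.3, 58.2 and 56.7 CPM in controls against 60.1, 58.4 and 68.4 CPM in Rnmt cKO cells, with overlap and a log2 fold change of 0.09 (SE 0.08, adjusted p = 0.693). Their summed level was 44.9 ± 0.77 RPKM in controls and 48.6 ± 2.48 RPKM in Rnmt cKO cells, without overlap (p = 0.10, two-sided exact permutation test). The nearest libraries were control replicate 3 (45.4 RPKM) and Rnmt cKO replicate 2 (46.7 RPKM). That p-value is unadjusted and the smallest that this design allows. The sum contains Cnot7, whose groups did not overlap either, so it is not a further result. The log2 ratio of Cnot8 to Cnot7 counts was -0.14 ± 0.16 and -0.22 ± 0.13 (SD, n = 3 each), with overlap (p = 0.7, exact permutation test).

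Cnot1, which encodes the scaffold that the other subunits assemble on, differed by far less than its spread. It lies at chr8:95719451-95807464 on the minus strand and held 418, 418 and 475 CPM in controls against 414, 445 and 442 CPM in Rnmt cKO cells (log2 fold change -0.01, SE 0.07, adjusted p = 0.978, edgeR exact test). Cnot2, which encodes a subunit of the NOT module bound to CNOT1 (chr10:116485161-116581511, minus strand), held 156, 161 and 156 CPM in controls against 164, 181 and 171 CPM in Rnmt cKO cells. Its groups did not overlap, and the log2 fold change of 0.13 (SE 0.05) did not pass the test (adjusted p = 0.415). The sign of the Cnot1 difference was not stable, being below 0 in 13 of the 16 alternative settings and above 0 in 3, which include library size alone as scaling (0.11).

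An annotated snoRNA gene lies inside an intron of Cnot1 on the same strand, Gm26493 (chr8:95746060-95746195), and its values went apart from those of its host. It held 4.58, 3.19 and 2.98 CPM in controls against 1.69, 1.60 and 2.60 CPM in Rnmt cKO cells, with no overlap. Its log2 fold change was -0.86 (SE 0.27), just short of the threshold (adjusted p = 0.0546, edgeR exact test), beside -0.01 for Cnot1. It rests on 162 counts in all, and the difference between the 2 genes was not tested. In the span of Cnot6 a processed pseudogene, Gm12191 (chr11:49678710-49679057), held 5.39 to 6.70 CPM in controls against 3.70 to 4.93 CPM in Rnmt cKO cells (log2 fold change -0.49, SE 0.14, adjusted p = 0.151). Both genes were named after their values were seen.

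Set in order per length in the control cells, Btg1 (163 RPKM) came first, followed by Btg2 (75.0), Cnot1 (52.1), Cnot2 (45.3), Cnot6l (35.1), Cnot6 (28.2), Cnot8 (28.0), Cnot7 (16.9), Tob2 (13.1) and Tob1 (7.34). The libraries of neighbouring genes overlapped only between Cnot6l and Cnot6 and between Cnot6 and Cnot8. Among all tested genes Btg1 stood at the 97.8th percentile of this measure, Btg2 at the 94.7th and Cnot1 at the 91.6th, down to the 44.1st for Tob1. In Rnmt cKO cells the order was the same except that Cnot8 (29.7 RPKM) and Cnot6 (29.6 RPKM) changed places, and there the libraries of Cnot1 (51.7 RPKM) and Cnot2 (49.4 RPKM) overlapped as well.

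Counted over the 10 genes, 1 was higher and 0 were lower by the edgeR exact test, where 14.8% of all tested genes passed in either direction. Btg1 was also the only one of the 10 with an unadjusted p under 0.05, and the edgeR quasi-likelihood test and DESeq2 gave the same counts. The groups did not overlap in 3 genes that were higher in Rnmt cKO cells (Btg1, Cnot2 and Cnot7) and in 1 that was lower (Cnot6l), where 16.6% and 14.9% of all tested genes did so. The median log2 fold change of the 10 genes was 0.09 and that of all tested genes 0.01. With library size alone as scaling the median of all genes moved to 0.14 and that of the 10 genes to 0.21, while Btg1 stood at 0.76.

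The other genes of the same machinery were described from 7 lists with 57 genes, of which 56 are in the tables and 50 passed the filter. Of these 4 rose and 2 fell, beside 8.0% and 6.84% of all tested genes, and their median log2 fold change was 0.03. The 2 that fell and 2 of the 4 that rose passed in all 16 alternative settings. The gene Samd4b of the recruiter list was not analysed here.

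Of the 6 other tested CCR4-NOT genes, 0 passed the edgeR exact test, 0 the quasi-likelihood test and 0 DESeq2, and 2 had an unadjusted p under 0.05 in the exact test. The most abundant, Cnot4, which encodes an E3 ubiquitin ligase, had 84.2 ± 10.3 CPM in controls against 75.2 ± 14.1 CPM in Rnmt cKO cells (adjusted p = 0.549). Cnot11 had a log2 fold change of 0.26 (adjusted p = 0.132, edgeR exact test) and Tnks1bp1, whose product binds the complex, of -0.30 (adjusted p = 0.115). Both had groups that did not overlap, where 16.6% of all tested genes were higher and 14.9% lower without overlap. In the BTG family, Btg3 was low, at 5.09 ± 1.05 CPM in controls against 4.71 ± 0.09 CPM in Rnmt cKO cells (log2 fold change -0.12, adjusted p = 0.853), and Btg4, known from oocytes, had at most 1 count in a library.

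Among 8 tested genes of other deadenylases, Parn rose. It encodes the poly(A)-specific ribonuclease that trims the tails of small nuclear and nucleolar RNAs, and stood at 47.3, 53.1 and 46.1 CPM in controls against 60.8, 62.7 and 65.2 CPM in Rnmt cKO cells (log2 fold change 0.36, SE 0.07, adjusted p = 0.00485, edgeR exact test). The call was lost without control replicate 1 (adjusted p = 0.0569) and without control replicate 3 (0.0583). Pan3, the most abundant gene of the list and a subunit of the PAN2-PAN3 deadenylase, held 269 ± 28.9 CPM and 295 ± 46.7 CPM (adjusted p = 0.611).

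Among 6 tested genes of poly(A)-binding proteins and their regulators, Pabpc1 fell. Its protein coats the tails that CCR4-NOT removes, and its mRNA is a known TOP mRNA. It held 720.2, 708 and 802 CPM in controls against 451, 504 and 568 CPM in Rnmt cKO cells, with no overlap (log2 fold change -0.55, SE 0.11, adjusted p = 5.17e-05, edgeR exact test). Pabpc4, another cytoplasmic member, had 55.5 ± 5.21 CPM and 64.4 ± 4.95 CPM (adjusted p = 0.210).

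Of 15 tested genes whose products bring CCR4-NOT to particular mRNAs, 2 rose by each of the 3 tests run, and both encode zinc finger proteins of the tristetraprolin family that bind AU-rich elements. Zfp36 held 86.9, 87.6 and 74.6 CPM in controls against 116, 122 and 131 CPM in Rnmt cKO cells (log2 fold change 0.57, SE 0.09, adjusted p = 1.08e-06, edgeR exact test). Zfp36l1 held 119, 111 and 123 CPM and 149, 163 and 165 CPM (log2 fold change 0.44, SE 0.06, adjusted p = 9.56e-05). The third member, Zfp36l2, is the most abundant of the family and stood at 218 ± 15.7 CPM and 219.7 ± 1.73 CPM (log2 fold change 0.01, adjusted p = 0.988). The most abundant gene of the list, Tnrc6b, which links microRNA complexes to CCR4-NOT, held 441 ± 60.5 CPM and 374 ± 56.0 CPM (log2 fold change -0.24, adjusted p = 0.288). DESeq2 also called 1 gene of the list lower, Pum2, which encodes a Pumilio protein and whose groups did not overlap, at 411 ± 39.9 CPM and 341 ± 11.4 CPM (log2 fold change -0.27, SE 0.08, adjusted p = 0.0635 by the edgeR exact test).

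Among 5 tested genes of proteins that act with CCR4-NOT in repression and decapping, 0 passed by the edgeR exact test, by the quasi-likelihood test or by DESeq2, and 0 had an unadjusted p under 0.05. Ddx6, which encodes an RNA helicase bound by CNOT1 and is the most abundant, held 422 ± 51.6 CPM in controls against 402 ± 24.5 CPM in Rnmt cKO cells (adjusted p = 0.782). Among 9 tested genes of enzymes that lengthen or tail RNA 3′ ends, Tent5a fell, from 71.7, 66.9 and 52.8 CPM to 29.0, 29.8 and 35.6 CPM (log2 fold change -1.02, SE 0.16, adjusted p = 2.98e-11, edgeR exact test). Its paralog Tent5c stood at 133 ± 8.21 CPM and 159 ± 8.19 CPM (log2 fold change 0.26, SE 0.07), just past the threshold at an adjusted p of 0.0491, and passed in only 4 of the 16 alternative settings. Papola, the nuclear poly(A) polymerase and the most abundant of the list, held 243 ± 16.3 CPM and 234 ± 11.5 CPM (adjusted p = 0.810).

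**Figure D4:**
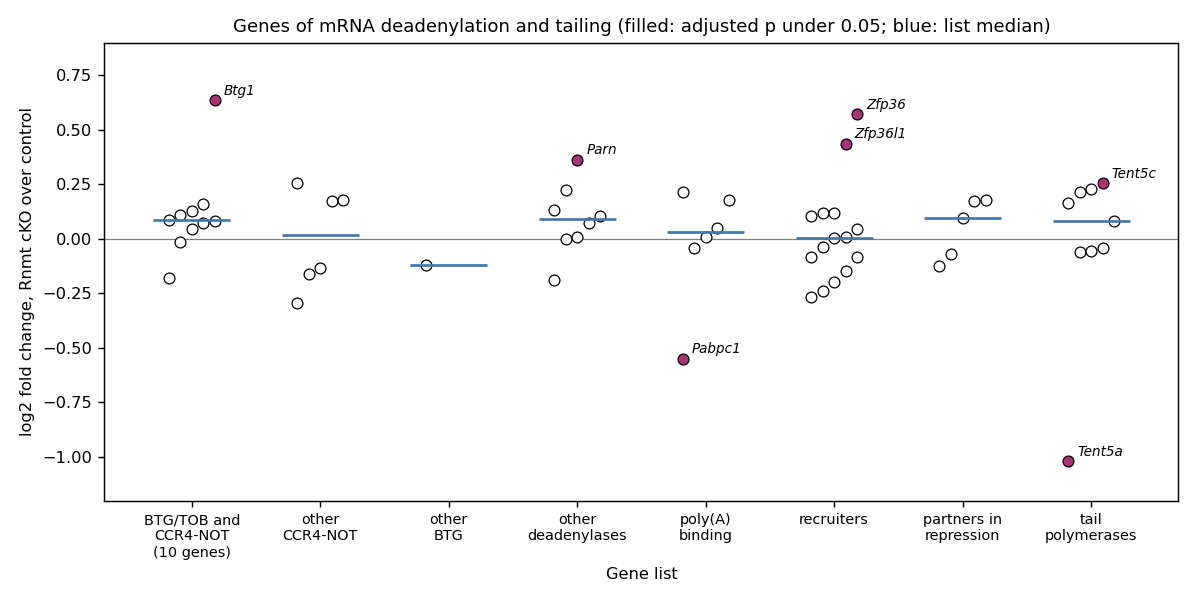
The log2 fold change of Rnmt cKO over control for each tested gene of the 10 BTG/TOB and CCR4-NOT genes and of the 7 lists of related genes, with filled and named points where the adjusted p of the edgeR exact test is under 0.05 and a blue line at each median. The named points are Btg1, Parn, Zfp36, Zfp36l1 and Tent5c above 0 and Pabpc1 and Tent5a below, and the median of the 50 related genes is 0.03.

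Markers of the sorted cells and of other cells moved with the genotype, and their part in the Btg1 rise was not tested. In bulk RNA, fewer cells of a type and less RNA per cell cannot be told apart. Of 9 tested naïve CD4 T cell markers 2 rose (Cd4 and Klf2) and 2 fell (Cd3g and Il7r), and all 9 were well above 0, with a summed level of 4154 to 4451 CPM in controls against 4228 to 4839 CPM in Rnmt cKO libraries. Of these 4 calls Klf2 and Il7r passed in all 16 alternative settings, Cd4 in 14 and Cd3g in 12. Regulatory T cell markers summed to 127 to 170 CPM and 94.4 to 121 CPM, and 2 of 3 fell, while memory and effector markers summed to 178 to 188 CPM and 169 to 203 CPM, with Cd44 falling and Il2rb rising among 3 tested, the Il2rb call being lost without control replicate 3 (adjusted p = 0.0571). Both CD8 markers fell by the exact test, and 1 of them by the quasi-likelihood test or DESeq2, from 21.7 to 23.3 CPM in sum to 13.5 to 17.3 CPM. B cell markers summed to 45.9 to 53.3 CPM and 57.8 to 97.1 CPM, with 4 of 8 higher by the exact test, 2 by the quasi-likelihood test and 3 by DESeq2, and none of the 8 was at 0. Myeloid markers summed to 4.59 to 6.30 CPM and 11.6 to 33.8 CPM, with 3 of 4 tested higher. Of these, S100a8 and S100a9 lay under 1 CPM in every control and passed the filter only through the Rnmt cKO libraries. Cd14, which was not tested, was at 0 in all libraries except Rnmt cKO replicate 2 (0.17 CPM). Erythroid markers summed to 4.75 to 7.52 CPM and 1.06 to 1.35 CPM.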

How the data were processed

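RNA from sorted naïve CD4 T cells was sequenced after rRNA depletion in 6 libraries. The authors aligned read pairs with STAR 2.5.2b to mm10 (GENCODE vM12 basic) and deposited raw counts per gene. The authors also deposited an edgeR table with log2 fold changes, p-values and a normalised signal per library; its symbols were used and the signal served to identify the sense count column. Here sense counts were tested in edgeR 4.0.16 (R 4.3.3) wherever a gene exceeded 1 CPM in 3 libraries or more, with TMM scaling, tagwise dispersions, the exact test and Benjamini-Hochberg adjustment at 0.05, over 12336 genes. Scripts were tested on simulated data. SEs come from per-library log2 CPM with a prior count of 2. RPKM uses the union of exons in GENCODE vM21, which is on the same build and gave coordinates for 46488 of 46983 genes. Reads in no gene, which are those outside annotated sense exons (31.8% to 47.9% of uniquely mapped reads), stayed out of library sizes. Paralog ratios and sums were compared with exact permutation tests (scipy 1.17.1). By rule, the genes named are the 10 genes, Rnmt, and the listed genes past the threshold or most abundant in their list, of which marker genes are given mainly as counts and 1 is not reported here. Btg4, Cnot11, Tnks1bp1, Pabpc4, Pum2, Zfp36l2, Gm26493 and Gm12191 were added after their values were seen. Members and lists were chosen with earlier results of these data known. Alternatives used other tests (edgeR quasi-likelihood and DESeq2 1.42.0), scalings, filters, count columns, a covariate, a block and each library left out.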

Additional observations from a re-analysis of the deposited data

Results flagged for a closer look

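Counts on the strand opposite to Cnot6l, which lie outside the sense counts used for every comparison, did not overlap between the groups. The control libraries held 5, 5 and 4 such counts and the Rnmt cKO libraries 12, 11 and 12, so that every Rnmt cKO value was above every control value. The mean was 0.510 CPM in controls against 1.091 CPM in Rnmt cKO cells, beside 309 CPM and 273 CPM of sense counts. No annotated exon overlaps Cnot6l on that strand. Opposite-strand counts made up 0.126% to 0.457% of the Cnot6l counts of a library, beside 4.475% to 4.975% over all genes. These are counts of 12 or fewer, and the difference was not tested. The share of all genes without overlap on the opposite strand was not computed. For the other 9 genes the opposite-strand values of the groups overlapped.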

How the results depend on the processing

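The 10 genes gave 1 higher (Btg1) and 0 lower under all 16 alternatives, which were all planned, and Rnmt stayed lower in each (log2 fold change -0.81 to -0.52, adjusted p 1.48e-05 to 0.0416). The median of the 10 genes was 0.0854, moved to 0.2072 without scaling beyond library size, and ranged from 0.0001 (without Rnmt cKO replicate 3) to 0.1153 with 1 library left out. Genes of the related lists that fell numbered 2, but 3 with DESeq2, its size factors or upper-quartile scaling, 7 with the share of reads in no gene as a covariate, and 2 to 5 with 1 library left out (5 without Rnmt cKO replicate 3). Those that rose numbered 4, but 3 with the quasi-likelihood test, DESeq2, its size factors, upper-quartile scaling, no filter or either-strand counts, 11 without scaling, 8 with the covariate, 2 with the replicate block and 2 to 5 with 1 library left out (2 without control replicate 1, 5 without Rnmt cKO replicate 3). The cause was not tested. Deviations of same-numbered libraries correlated at -0.21, -0.02 and -0.34, and no Rnmt cKO library correlated best with its own number. The replicate numbers thus gave no sign of a pairing. These correlations cannot exclude one, since the libraries also differ in their share of reads in no gene. With the replicate block 276 genes were lower and 431 higher in place of 844 and 987, and Btg1 had a log2 fold change of 0.63 (adjusted p = 0.0329), while Parn (0.0792), Tent5c (0.150), Junb (0.101), Fos (0.126), Trp53inp1 (0.0517), Cd3g (0.130), Cd4 (0.138) and Il2rb (0.0903) no longer passed. Over all genes, calls came to 535 lower and 1938 higher without scaling, 1466 and 1696 with the covariate, 1285 and 1221 without Rnmt cKO replicate 3, and 547 to 624 and 643 to 747 without any other single library. The 4 paralog ratios kept their direction with either-strand counts and with each library left out, Btg2 to Btg1 between -0.575 and -0.486 and Cnot6l to Cnot6 between -0.277 and -0.230. The differences of the other 9 genes were not detectable at the depth and spread of these libraries.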
